A study of Rattus norvegicus with 10 samples.

Results

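The genes that receive and answer the glucocorticoid signal were followed in single rats of the focal amygdala stimulation model of epilepsy. The set held 10 genes: the corticosteroid receptors Nr3c1 and Nr3c2, the receptor co-chaperones Fkbp5 and Fkbp4, the hormone-activating enzyme Hsd11b1, the stress-peptide receptor Crhr1, and the hormone-responsive genes Sgk1, Tsc22d3, Klf9 and Ddit4. They were chosen by gene symbol among the 32041 rows of a messenger RNA count matrix, which carried 16610 distinct symbols. One row was kept per symbol, the one with the highest mean count, and all 10 genes had enough counts to be among the 22447 rows tested. All rats were male Sprague-Dawley rats of 290 to 320 g, housed singly from the day of surgery, which was done under isoflurane and butorphanol. Each of them carried a wire electrode in the left lateral amygdala and screw electrodes over cortex and cerebellum. The 5 sham rats (rats 1 to 5) received no current. The 5 stimulated rats (rats 6 to 10) were driven into status epilepticus, a prolonged seizure, after 2 weeks of recovery by pulses of 400 µA at 60 Hz over 30 min, and diazepam was given afterwards to stop it. They were watched by video EEG over the last 2 weeks, and the paper states that every stimulated animal enrolled had spontaneous seizures. The seizures of single rats were not used here. Tissue was taken 3 months later from the left hippocampus, labelled dorsal, in a piece with the CA3 field and the dentate gyrus. Every rat in either group was therefore an operated and implanted animal, and no rat without an electrode was part of the comparison. Diazepam, status epilepticus and the later spontaneous seizures went together in the stimulated group and cannot be told apart.

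In rodents the adrenal gland releases corticosterone, which crosses into the brain and binds a pair of nuclear receptors. The mineralocorticoid receptor, encoded by Nr3c2, binds it tightly and is abundant in hippocampal neurons, while the glucocorticoid receptor, encoded by Nr3c1, binds it less tightly and is engaged at the daily peak and under stress. The unliganded glucocorticoid receptor sits in the cytoplasm in a complex with the chaperone Hsp90, and the immunophilins Fkbp5 and Fkbp4 compete for a place in that complex. With hormone bound, the receptor enters the nucleus and switches on genes that include Fkbp5 itself, which closes a negative feedback loop on receptor sensitivity.

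Aligned counts ranged from 13552309 in sham rat 2 to 24086059 in sham rat 4. Reads the authors could not align were 32.8 to 37.1% of the total in sham rats, 35.6, 32.0, 41.4, 42.9 and 45.1% in stimulated rats 6 to 10, and ribosomal RNA records took 1.82 to 12.2% of aligned counts. No batch is named in the labels, and values within batches could not be given. Summed markers of CA3 pyramidal cells were at 483 to 547 CPM in sham and 477 to 592 CPM in stimulated rats, and those of dentate granule cells at 322 to 385 and 189 to 415 CPM, so markers of both fields of the dissected piece were detected. CA1 markers were also detected, at 192 to 316 CPM in sham rats and 118 to 379 CPM in stimulated rats. CPM stands for counts brought to a common library size, here after scaling by the trimmed mean of M-values (TMM). Errors given with means are SDs over the 5 rats of a group. Because the tissue was a bulk homogenate, fewer cells of a type and less RNA per cell cannot be told apart in any value below.

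Across the set, the co-chaperone Fkbp5 was higher in each of the 5 stimulated rats than in any sham rat, Klf9 was higher and Tsc22d3 lower in 3 of the 5, and both receptors were at nearly the same mean level in the groups. None of these differences passed the threshold after adjustment. In edgeR's quasi-likelihood test 0 of the 10 genes passed an adjusted p-value of 0.05, as did 0 of all 22447 rows (0.0%), with a lowest adjusted p-value of 0.376 over the whole table. The study's own edgeR comparison, with 4 stimulated animals by its methods, listed many genes with adjusted p-values under 0.05. Fos, Cdkn1a, Nfil3, Klf10 and Dbp were among them. The count of 0 rows thus belongs to the test and the 10 rats used here. At an unadjusted p-value under 0.05, 2 of the 10 genes were higher in stimulated rats (Fkbp5 and Klf9), against 6.7% of all rows, and 1 was lower (Tsc22d3), against 3.16% of all rows. DESeq2, the edgeR likelihood ratio test and the edgeR exact test each gave 0 of the 10 genes past the adjusted threshold and the same 3 at an unadjusted p-value under 0.05, while calling 33, 119 and 90 rows of the whole table. Of the set, Fkbp5 alone had groups that did not overlap, which held for 0.695% of all rows in the higher direction and 0.597% in the lower direction. In direction, 6 of the 10 genes were higher and 4 lower (52.2% of all rows were higher), and their median log2 fold change (stimulated over sham) was 0.10, against 0.01 for all rows tested.

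**Figure D1:**
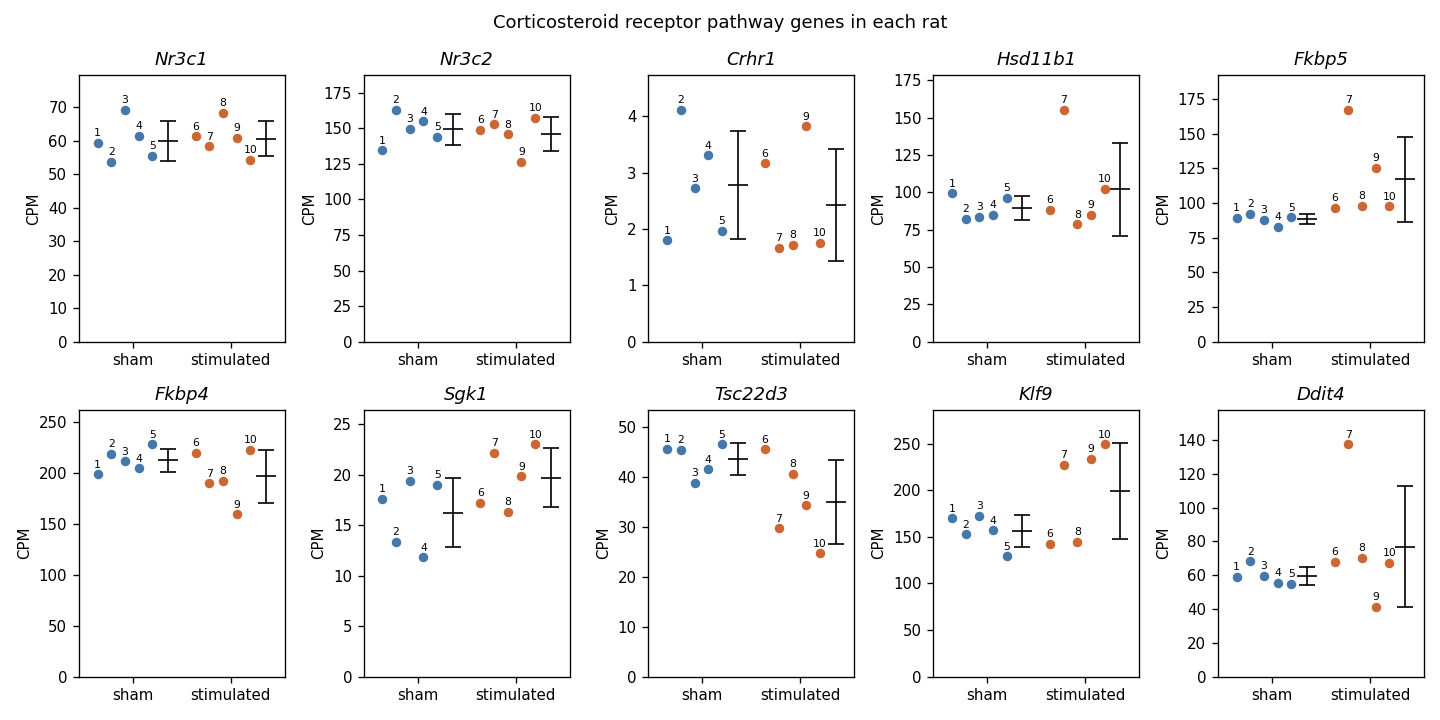
Each panel gives the level of 1 gene in CPM (vertical axis, from 0) for sham rats 1 to 5 and stimulated rats 6 to 10, numbered beside the points, with the group mean and SD as a black bar beside them. In Fkbp5 all 5 stimulated rats sit above the highest sham rat, while in Nr3c1 and Nr3c2 the groups lie over one another.

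The sequences before the start sites of the 3 genes with an unadjusted p-value under 0.05 are shown because these are the members whose levels differed most by that measure. They are the 250 bases before a RefSeq start site of the GRCr8 build, 5′ to 3′, and they were used as a description of sequence, since the reads were counted on another build. Capitals mark matches on either strand to 6 motifs: the glucocorticoid response element (AGAACA, any 3 bases, TGTTCT), its arm AGAACA alone, the cyclic AMP element core TGACG, the AP-1 site TGANTCA, the CCAAT box and the TATA box TATAAA.
Fkbp5, GRCr8 chr20:6543556-6543805, minus strand: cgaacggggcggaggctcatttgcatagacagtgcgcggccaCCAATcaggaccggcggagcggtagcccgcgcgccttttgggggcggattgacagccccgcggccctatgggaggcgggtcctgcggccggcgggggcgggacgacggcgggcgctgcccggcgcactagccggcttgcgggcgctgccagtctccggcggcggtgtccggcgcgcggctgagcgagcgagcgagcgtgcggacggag
Klf9, GRCr8 chr1:230126396-230126645, plus strand: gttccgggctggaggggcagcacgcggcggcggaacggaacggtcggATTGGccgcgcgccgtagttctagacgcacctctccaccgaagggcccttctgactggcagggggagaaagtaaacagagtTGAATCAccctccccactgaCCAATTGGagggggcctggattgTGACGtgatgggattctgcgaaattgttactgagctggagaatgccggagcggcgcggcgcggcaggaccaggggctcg
Tsc22d3, GRCr8 chrX:109010035-109010284, minus strand: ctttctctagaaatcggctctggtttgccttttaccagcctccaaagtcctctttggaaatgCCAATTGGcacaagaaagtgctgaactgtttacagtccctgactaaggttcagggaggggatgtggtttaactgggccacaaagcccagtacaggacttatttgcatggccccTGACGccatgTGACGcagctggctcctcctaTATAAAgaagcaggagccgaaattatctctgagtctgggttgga

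The Fkbp5 stretch, 76.0% G and C, held a CCAAT box at position -208 and no other match. The Klf9 stretch held an AP-1 match at -122, a TGACG core at -79 and CCAAT matches at -203, -102 and -99, of which the last pair overlap as CCAATTGG. The Tsc22d3 stretch held a TATA match at -44, TGACG cores at -75 and -65 and the same CCAATTGG run at -188 and -185. RefSeq lists 3 start sites for Tsc22d3, and the counted row was not assigned to one of them. The stretch printed is from the one window of the 3 that held a match, which is why it was chosen, and the other two windows held 0 matches. Windows from 250 bases before to 50 after the start were listed for 8 of the 10 genes, 14 windows in all, and none was listed for Nr3c2 and Hsd11b1. Of the 14 windows, 0 held AGAACA, whose share among all 33469 windows was 20.7%, and so 0 held the full element, which contains that arm and was in 0.0149% of all windows. The 14 windows held from 40.7% (Sgk1) to 79.0% (Nr3c1) G and C, most of them above the median of all windows, 51.7%. The shares were not matched for base composition. The 2 windows of Crhr1 overlap, and Sgk1 and Tsc22d3 gave 3 windows each. CCAAT was in 5 of the 14 windows (37.5% of all windows), TATAAA in 3 (14.2%), TGACG in 2 (21.2%) and TGANTCA in 2 (7.33%). A match is a run of letters and not a bound site, and these short windows leave out the distant elements through which glucocorticoid receptors are known to act.

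The receptors were compared first. Nr3c1 (NM_012576), the glucocorticoid receptor, was at 59.4, 53.7, 69.3, 61.5 and 55.5 CPM in sham rats 1 to 5 and 61.3, 58.4, 68.4, 60.9 and 54.3 CPM in stimulated rats 6 to 10. The groups overlapped throughout, and rats 3 and 8, one of each group, were the highest. Its means were 59.9 ± 6.08 CPM for sham and 60.6 ± 5.15 CPM for stimulated animals, a log2 fold change of 0.02 (SE 0.0955, 95% interval -0.19 to 0.22, edgeR adjusted p = 0.968). Nr3c2 (NM_013131), the mineralocorticoid receptor, was at 134, 163, 149, 155 and 144 CPM in sham rats 1 to 5 and 149, 153, 146, 126 and 157 CPM in stimulated rats 6 to 10. Rat 9 alone lay below all sham rats. Its means were 149 ± 10.8 CPM for sham and 146 ± 11.9 CPM for stimulated animals, a log2 fold change of -0.03 (SE 0.0839, 95% interval -0.21 to 0.15, edgeR adjusted p = 0.934). As folds, the intervals reached from 0.878 to 1.17 for Nr3c1 and from 0.865 to 1.11 for Nr3c2.

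The balance between the receptors within a rat does not depend on how libraries are scaled, so it was tested as a ratio. The ratio of Nr3c2 to Nr3c1 counts was 2.26, 3.03, 2.16, 2.52 and 2.59 in sham rats 1 to 5 and 2.43, 2.61, 2.13, 2.07 and 2.90 in stimulated rats 6 to 10. Sham rat 2 and stimulated rat 10 had the highest ratios and the groups overlapped. Transcript lengths were not accounted for, so the ratio is read between rats and not as a ratio of molecules. On the log2 scale the sham mean was 1.32 ± 0.192 and the stimulated mean 1.27 ± 0.202. The difference of -0.05 lay within the spread of the rats (two-sided exact permutation test over all assignments of rats to groups, p = 0.683). It changed sign, to 0.021 when sham rat 2 was left out and to 0.0042 when stimulated rat 9 was left out.

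Next, the supply of hormone and the peptide arm of the stress axis were examined. Hsd11b1 (NM_017080), the reductase that regenerates active corticosterone inside cells, was at 99.5, 82.4, 83.8, 85.1 and 96.4 CPM in sham rats 1 to 5 and 88.4, 155, 78.5, 85.2 and 103 CPM in stimulated rats 6 to 10. Rat 7 stood far above the others, rat 10 was slightly above the highest sham rat, and rat 8 was below the lowest. Its means were 89.4 ± 7.88 CPM for sham and 102 ± 31.1 CPM for stimulated animals, a log2 fold change of 0.19 (SE 0.160, 95% interval -0.15 to 0.53, edgeR adjusted p = 0.718), and without rat 7 it was -0.02. Crhr1 (NM_030999), the receptor for corticotropin-releasing hormone, was at the lowest level of the set's rows, with 27 to 80 counts per rat, which leaves its values imprecise. It was at 1.80, 4.12, 2.72, 3.31 and 1.97 CPM in sham rats 1 to 5 and 3.17, 1.67, 1.72, 3.83 and 1.75 CPM in stimulated rats 6 to 10. The groups overlapped, with 3 stimulated rats below the lowest sham rat and the other two within the sham range. Its log2 fold change was -0.18 (SE 0.305, 95% interval -0.84 to 0.47, edgeR adjusted p = 0.880), and it ranged from -0.40 without rat 9 to -0.02 without sham rat 2.

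Of 21 further genes of steroid supply and the corticotropin-releasing hormone system, 15 were tested, and 0 passed the adjusted threshold. At an unadjusted p-value under 0.05, 1 was higher (6.7% of all rows were) and 0 were lower (3.16% of all rows), near those shares, and the median log2 fold change was -0.01. The higher count was 0 without rat 10 and 2 without rat 8, and the lower count was 1 without rat 6 or with no filter on low counts. That gene was Cyp11b1, which encodes the enzyme of the last step of corticosterone synthesis. It was at 2.62, 1.60, 2.61, 1.74 and 1.97 CPM in sham rats 1 to 5 and 2.76, 3.44, 2.68, 2.75 and 4.70 CPM in stimulated rats 6 to 10, all 5 stimulated values above the sham values, with a log2 fold change of 0.63 (SE 0.229, edgeR adjusted p = 0.418). Its level is uncertain, since Cyp11b2 is a near-identical copy and it is not stated how reads common to both were counted.

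The immunophilins of the receptor complex were examined next, of which Fkbp5 had groups that did not overlap and Fkbp4 had overlapping groups. Fkbp5 (NM_001012174) was at 89.5, 92.1, 87.8, 82.9 and 89.8 CPM in sham rats 1 to 5 and 96.6, 167, 98.2, 126 and 97.6 CPM in stimulated rats 6 to 10. Sham rats lay within a narrow band, rats 6, 8 and 10 were just above it, and rats 7 and 9 were far above it. Its means were 88.4 ± 3.41 CPM for sham and 117 ± 30.7 CPM for stimulated animals, a fold of 1.33 and a log2 fold change of 0.41 (SE 0.141, 95% interval 0.10 to 0.71). The unadjusted p-value of edgeR's quasi-likelihood test was 0.0121 and the adjusted p-value 0.412. The direction was the same in each fit with 1 rat left out, and rat 7 decided much of the size, since without it the log2 fold change was 0.23. Fkbp4 (NM_001191863), which links the receptor to the motor protein dynein, was at 199, 219, 211, 204 and 228 CPM in sham rats 1 to 5 and 219.7, 190.0, 192, 159 and 223 CPM in stimulated rats 6 to 10. Rats 7, 8 and 9 were below the lowest sham rat, and rats 6 and 10 were within the sham range. Its log2 fold change was -0.11 (SE 0.0941, 95% interval -0.31 to 0.09, edgeR adjusted p = 0.725), and -0.04 without rat 9.

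The ratio of Fkbp5 to Fkbp4 counts, again free of library scaling, was 0.450, 0.421, 0.415, 0.406 and 0.394 in sham rats 1 to 5 and 0.439, 0.882, 0.511, 0.788 and 0.439 in stimulated rats 6 to 10. The ratio was above that of every sham rat in rats 7, 8 and 9, and within the sham range in rats 6 and 10. On the log2 scale the sham mean was -1.26 ± 0.0725 and the stimulated mean -0.77 ± 0.479, a difference of 0.49 (two-sided exact permutation test, p = 0.0238, and 0.0476 adjusted over the 2 ratios tested). The smallest p-value such a test can give is 0.00794. The SDs were unlike, 0.0725 for sham and 0.479 for stimulated rats. Such a test can answer to unequal spread as well as to a shift of the mean. The pair was chosen with earlier results of these data known, and the difference was not past 0.05 when any 1 of the sham rats was left out (exact permutation test, p = 0.0556 without rat 1 and 0.0873 without each of the others).

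**Figure D2:**
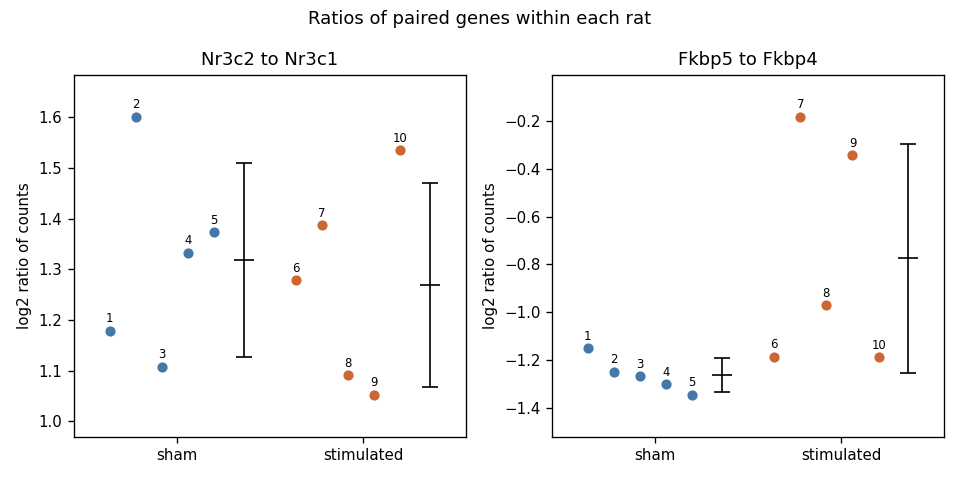
The log2 ratio of counts within each rat (vertical axis) is shown for Nr3c2 to Nr3c1 on the left and Fkbp5 to Fkbp4 on the right, with numbered points for rats, the group mean and the SD. The receptor ratios overlap (means 1.32 and 1.27), while the immunophilin ratio is above all sham rats in rats 7, 8 and 9.

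Of 16 other chaperones and co-chaperones of the receptor complex, 15 were tested and 0 passed the adjusted threshold. At an unadjusted p-value under 0.05, 1 was higher (6.7% of all rows were) and 0 were lower (3.16% of all rows), which is near those shares, and the median log2 fold change was 0.03. The gene was Hsp90aa1, the inducible form of the Hsp90 chaperone, with means of 665 ± 36.0 CPM for sham and 754 ± 54.1 CPM for stimulated animals and a log2 fold change of 0.18 (SE 0.0725, edgeR adjusted p = 0.446). The list had 0 genes under 0.05 before adjustment with the edgeR exact and likelihood ratio tests, with upper quartile factors, and without sham rat 2, sham rat 4 or stimulated rat 7. Of 12 receptor coregulators, 8 were tested and 0 were under 0.05 before adjustment, or 1 without rat 9. The smallest p-value belonged to Smarca4, the ATPase of a chromatin remodelling complex, with a log2 fold change of 0.19 (SE 0.102).

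The hormone-responsive genes are given next. Klf9 (NM_057211), a transcription factor that glucocorticoids induce in neurons, was at 169.7, 152, 173, 157 and 129 CPM in sham rats 1 to 5 and 142, 227, 144, 234 and 249 CPM in stimulated rats 6 to 10. Rats 7, 9 and 10 were above every sham rat, and rats 6 and 8 were within the sham range. Its means were 156 ± 17.4 CPM for sham and 199 ± 51.7 CPM for stimulated animals, a log2 fold change of 0.35 (SE 0.158, 95% interval 0.01 to 0.69), with an unadjusted p-value of 0.0432 and an adjusted p-value of 0.488 in edgeR. Tsc22d3 (NM_031345), which encodes the anti-inflammatory leucine zipper protein GILZ, was at 45.5, 45.4, 38.8, 41.4 and 46.4 CPM in sham rats 1 to 5 and 45.4, 29.7, 40.6, 34.2 and 24.7 CPM in stimulated rats 6 to 10. The same rats 7, 9 and 10 were below every sham rat, and rats 6 and 8 were within the sham range. Its means were 43.5 ± 3.29 CPM for sham and 34.9 ± 8.31 CPM for stimulated animals, a log2 fold change of -0.32 (SE 0.146, 95% interval -0.63 to -0.0043), with an unadjusted p-value of 0.0473 and an adjusted p-value of 0.497 in edgeR. Both genes are commonly used as readouts of the same receptor, and in rats 7, 9 and 10 Klf9 was above and Tsc22d3 below the sham range. The part of receptor activity in these values was not tested. Neither gene kept an unadjusted p-value under 0.05 without any 1 of sham rats 1, 2, 4 and 5 or of stimulated rats 7, 9 and 10.

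Sgk1 encodes a kinase that acts on ion channels and transporters and answers to both receptors. Its row with the most counts (NM_019232) was at 17.6, 13.4, 19.4, 11.8 and 19.0 CPM in sham rats 1 to 5 and 17.2, 22.2, 16.3, 19.8 and 23.0 CPM in stimulated rats 6 to 10. Rats 7, 9 and 10 were above the highest sham rat by a small margin, and rats 6 and 8 lay among the sham rats. The log2 fold change was 0.28 (SE 0.158, 95% interval -0.06 to 0.62, edgeR adjusted p = 0.570). The counts of Sgk1 were spread over 3 rows in nearly equal shares, 32.5 to 41.0% for NM_019232, 30.7 to 33.6% for NM_001193569 and 27.7 to 36.6% for NM_001193568. With the 3 rows summed, the sham mean was 46.3 ± 7.28 CPM and the stimulated mean 54.4 ± 10.4 CPM, at a log2 fold change of 0.23 (SE 0.146, edgeR, adjusted p = 0.616). Rats 7, 9 and 10 were again the highest, at 61.3, 56.2 and 66.1 CPM, against at most 52.8 CPM in a sham rat.

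Ddit4 (NM_080906), an inhibitor of the growth kinase mTORC1 that is also induced by low oxygen and energy stress, was at 59.1, 68.2, 59.7, 55.5 and 54.8 CPM in sham rats 1 to 5 and 68.1, 137, 70.4, 41.2 and 67.2 CPM in stimulated rats 6 to 10. Rat 7 had the highest value and rat 9 the lowest of all 10 rats, and the other 3 stimulated rats were near the top of the sham range or just above it. Its means were 59.5 ± 5.36 CPM for sham and 76.9 ± 35.9 CPM for stimulated animals, a log2 fold change of 0.37 (SE 0.232, 95% interval -0.13 to 0.87, edgeR adjusted p = 0.609). The value was 0.04 without rat 7 and 0.53 without rat 9, the latter with an unadjusted p-value under 0.05, so these rats decided its size in opposite ways.

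**Figure D3:**
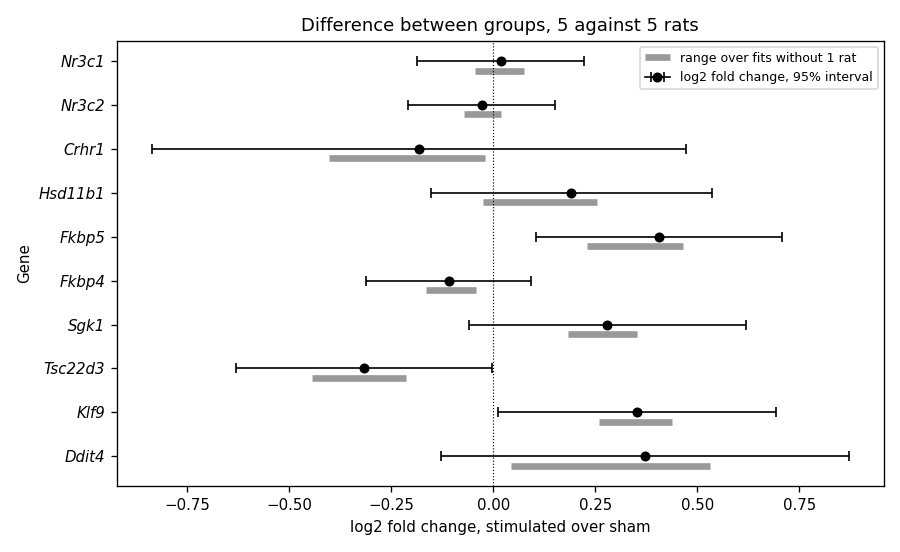
Log2 fold changes of stimulated over sham rats (horizontal axis) are shown for each gene with 95% intervals, and grey bars give the range over fits with 1 rat left out. The grey bars cross 0 for Nr3c1, Nr3c2 and Hsd11b1, and the intervals of Fkbp5 (0.10 to 0.71), Klf9 and Tsc22d3 leave out 0.

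Stimulated rats differed from one another more than sham rats did in most of these genes. The SD of log2 CPM in stimulated rats divided by that in sham rats was 6.14 for Fkbp5, 4.92 for Ddit4, 3.14 for Tsc22d3, 3.12 for Hsd11b1, 2.49 for Fkbp4 and 2.38 for Klf9. For Nr3c2, Crhr1, Nr3c1 and Sgk1 it was 1.17, 1.13, 0.847 and 0.673. A ratio above 1 was found for 8 of the 10 genes and for 69.5% of all rows, and the median ratio was 2.43 for the set and 1.37 for all rows. Among the 15976 rows within the set's range of mean CPM, from 2.61 to 204.5, 71.9% had a ratio above 1 and the median was 1.43. A ratio as large as that of Fkbp5 was reached by 1.93% of all rows, and one as large as that of Ddit4 by 3.43%. These shares are a description, since a ratio of SDs from 5 rats each is itself imprecise.

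The wider spread lay with single animals. Stimulated rat 6 had 1 of the 10 genes outside the range of the sham rats (Fkbp5), where 30.2% of all rows were outside it. Rat 8 had 5 (35.3% of all rows), rat 10 had 6 (49.7%), rat 9 had 7 (49.2%) and rat 7 had 8 (55.6%). Counts out of 10 genes are coarse, and that of rat 10 was near its share. In rat 7 the log2 deviations from the sham mean were 1.21 for Ddit4, 0.92 for Fkbp5, 0.80 for Hsd11b1, 0.55 for Klf9 and -0.55 for Tsc22d3. Rat 10 had the largest deviations of Klf9 (0.68) and Tsc22d3 (-0.81), with Fkbp5 only 0.14 above the sham mean. Rat 9 combined higher Fkbp5 (0.51) and Klf9 (0.59) with lower Ddit4 (-0.52) and Fkbp4 (-0.41). Fkbp5, Sgk1 and Klf9 were above the sham range and Tsc22d3 below it in each of rats 7, 9 and 10. Each of these rats had other genes outside it as well. How many of all rows were outside it in the same rats was not counted, so this is a description. The share of unaligned reads was lowest in rat 7 and highest in rat 10 of all rats, and its part in these deviations was not tested.

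**Figure D4:**
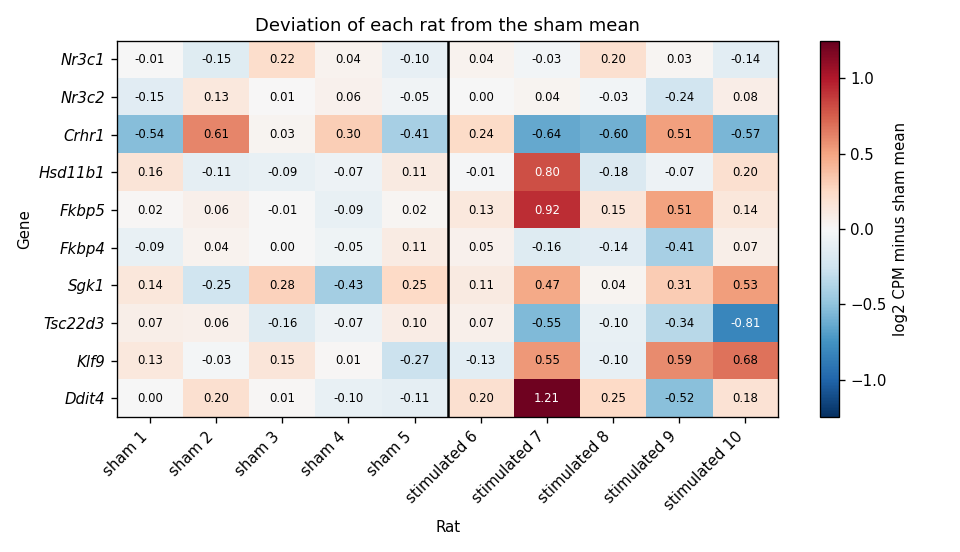
Rows are genes and columns are rats, with sham rats left of the black line; colour and numbers give log2 CPM minus the sham mean, from blue (lower) to red (higher). The values run from -0.81 for Tsc22d3 in rat 10 to 1.21 for Ddit4 in rat 7, Crhr1 varies in both groups (0.61 in sham rat 2 and -0.64 in rat 7), and rat 6 stays within 0.24 of the sham mean in every gene.

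Measures of neuronal activity, cell types and time of day were set beside these values. Fos, a gene switched on within minutes of strong firing, was at 3.26, 3.89, 4.14, 4.01 and 5.32 CPM in sham rats 1 to 5 and 5.61, 106, 5.24, 50.3 and 61.7 CPM in stimulated rats 6 to 10. All 10 of 10 immediate early genes were higher at an unadjusted p-value under 0.05, against 6.7% of all rows, with a median log2 fold change of 2.18. Under limma-voom 5 were higher and the median was 1.55, and with 1 rat left out 8 to 10 were higher and the median was lowest without rat 9 (1.42). The list had a summed level of 147 to 189 CPM in sham rats and of 197, 751, 138, 1745 and 710.1 CPM in rats 6 to 10. Rats 7, 9 and 10, in which Klf9 and Sgk1 were highest and Tsc22d3 lowest, were thus the rats with high immediate early genes. The part of activity in the values of the set was not tested.

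Astrocyte markers, of which 4 of 10 were higher and 0 lower at an unadjusted p-value under 0.05 (6.7% and 3.16% of all rows), summed to 4688 to 5337 CPM in sham rats and to 4720.4, 9630.2, 4936, 5997 and 8918 CPM in rats 6 to 10, with Gfap at 6469 and 5396 CPM in rats 7 and 10. Gfap alone thus made up most of the sums in rats 7 and 10. The mean log2 CPM of the 10 markers was 7.79 to 8.01 in sham rats and 7.89, 7.96, 7.99, 8.22 and 8.07 in rats 6 to 10. In direction 8 of the markers were higher and 2 lower, with a median log2 fold change of 0.12. Endothelial markers (6 of 10 higher, 0 lower) summed to 334 to 369.5 CPM in sham rats and to 397, 520.3, 406, 433 and 629.7 CPM in rats 6 to 10, and microglial markers (2 of 10 higher, 0 lower) to 455 to 557 CPM in sham rats and 492 to 722 CPM in stimulated rats. Markers of neurons (0 of 10), interneurons (0 of 10), oligodendrocytes (0 of 10), dentate granule cells (0 of 6 tested), CA3 cells (0 of 5), CA1 cells (0 of 7) and choroid plexus (0 of 9) had no member with an unadjusted p-value under 0.05 in the comparison of all 10 rats, and no listed marker row was at 0 in all rats. These counts moved with single libraries, as did the number of all rows under 0.05. That number was 2214 with all rats, 1657 without rat 7, 3145 without rat 6 and 3034 without rat 8. The astrocyte count was 2 without rat 7, the endothelial count 3 without rat 10, and the microglial count 1 under limma-voom and without sham rat 2, 4 or 5 or stimulated rat 7, 9 or 10. Without rat 6, 4 interneuron markers were lower and 1 higher and 2 CA1 markers were lower, without rat 8, 2 neuron and 2 dentate granule cell markers were lower, and without rat 9, 3 oligodendrocyte markers were lower. Smaller moves were 1 lower neuron marker without sham rat 1 or stimulated rat 6, 1 lower interneuron marker without sham rat 3, and 1 higher and 1 lower without rat 8. CA1 had 1 higher marker under DESeq2, with library size alone and without any 1 of rats 7 to 10, and dentate granule cells had 1 lower marker under limma-voom, with no filter and without rat 6 or 7. In direction, all 10 oligodendrocyte markers were lower (median log2 fold change -0.16). Of the 6 dentate granule cell markers tested, 5 were lower and 1 higher (median -0.26). Markers of neurons, interneurons, CA3 cells, CA1 cells and choroid plexus went both ways. Oligodendrocyte markers summed to 2809 to 4042 CPM in sham rats and were lowest in rat 7, at 2269 CPM. Dentate granule cell markers were also lowest in rat 7, at 189 CPM. These cell types express several of the genes in the set, and the part of the mixture of cells was not tested.

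Corticosterone follows the hour of day, and the labels did not give the hour of collection. Dbp, a clock output gene, was at 161, 107, 147, 170.1 and 151 CPM in sham rats 1 to 5 and 80.8, 50.8, 74.5, 74.6 and 112 CPM in stimulated rats 6 to 10, lower than every sham rat in 4 of the 5 stimulated rats, at a log2 fold change of -0.91 (SE 0.176, edgeR adjusted p = 0.376). Of 14 daily rhythm genes tested, 4 were higher (6.7% of all rows were) and 5 lower (3.16% of all rows) at an unadjusted p-value under 0.05, and 0 passed the adjusted threshold. The higher count was 2 without sham rat 1, 2 or 3 or stimulated rat 7 or 9 and under limma-voom, and the lower count was 3 without sham rat 4 and with library size alone. The part of the hour of collection in the values of the set was not tested.

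A wider list of 28 genes reported as glucocorticoid targets in various tissues was then described. All 28 were tested and 0 passed the adjusted threshold. At an unadjusted p-value under 0.05, 10 were higher (6.7% of all rows were) and 1 was lower (3.16% of all rows). In direction 20 were higher and 8 lower, where 52.2% of all rows were higher, and the median log2 fold change was 0.30 against 0.01 for all rows. The higher count was 6 without rat 7 or under limma-voom and was 13 without rat 6, and the lower count was 2 without rat 6 or under limma-voom and 3 without rat 8. The number of all rows under 0.05, in either direction, moved as well. It was 2214 in the main fit, 1657 without rat 7, 2034 under limma-voom, 3145 without rat 6 and 3034 without rat 8. Rat 7 had 16 of the 28 genes above the sham range, rat 10 had 15, rat 9 had 11, and rats 8 and 6 had 6 and 5, while 4 to 7 genes were below it in each rat. Of all rows, 28.8% were above the sham range in rat 7, 25.6% in rats 9 and 10, 17.7% in rat 8 and 16.0% in rat 6, and 14.2 to 26.8% were below it, so the counts above it in rats 6 and 8 were near those shares. The counts below it were 7, 7, 5, 7 and 4 in rats 6 to 10, against 14.2, 26.8, 17.6, 23.7 and 24.1% of all rows. In rats 7, 8 and 9 they were near those shares.

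Among them, Cdkn1a, the cell cycle inhibitor p21, was at 4.07, 6.64, 3.32, 3.72 and 3.48 CPM in sham rats 1 to 5 and 5.16, 30.7, 7.15, 33.9 and 13.3 CPM in stimulated rats 6 to 10, at a log2 fold change of 2.11 (SE 0.463, edgeR adjusted p = 0.376). It was far above the sham range in rats 7, 9 and 10. Tgm2, a transglutaminase that cross-links proteins, was at 16.4, 14.8, 19.0, 14.8 and 14.9 CPM in sham rats 1 to 5 and 15.5, 56.1, 19.7, 17.9 and 68.9 CPM in stimulated rats 6 to 10, high in rats 7 and 10 alone, with a log2 fold change of 1.16 (SE 0.370). Errfi1, a feedback inhibitor of the epidermal growth factor receptor, was high in rats 7 and 9, at 80.2 and 72.6 CPM, against 24.4 to 31.0 CPM in sham rats, at a log2 fold change of 0.81 (SE 0.285). The metallothionein Mt2A, which binds zinc and copper, had a log2 fold change of 0.95 (SE 0.341), and Glul, the glutamine synthetase of astrocytes, of 0.28 (SE 0.100), with means of 1380.0 ± 125 CPM for sham and 1672 ± 241 CPM for stimulated animals. Zbtb16, a transcriptional repressor, was the gene lower in stimulated rats, at 19.4, 25.7, 27.4, 20.9 and 17.8 CPM in sham rats 1 to 5 and 21.2, 14.6, 15.8, 17.4 and 13.2 CPM in stimulated rats 6 to 10, with 4 of the 5 stimulated rats below every sham rat and a log2 fold change of -0.43 (SE 0.155, edgeR adjusted p = 0.416). Many genes of this list also answer to neuronal activity, hypoxia or inflammation and several are enriched in astrocytes or blood vessels. The part of any of these in the values of the list was not tested. Like the set of 10, the list held values in both directions in the same animals, as did the whole of the rows tested.

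**Figure D5:**
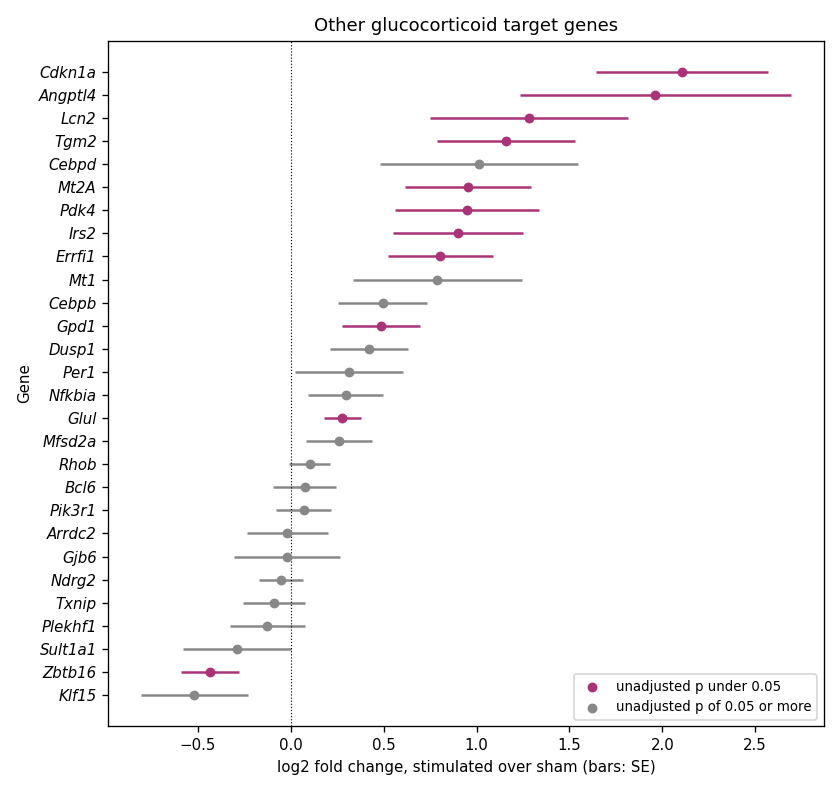
Log2 fold changes of stimulated over sham rats (horizontal axis) with standard errors are shown for 28 further target genes, coloured by whether the unadjusted p-value was under 0.05. The 10 coloured genes on the right range from 0.28 for Glul to 2.11 for Cdkn1a, and Zbtb16 is the coloured gene on the left, at -0.43.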

How the data were processed

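Messenger RNA was sequenced from 10 hippocampal samples, 1 per rat, in reads of 36 cycles after oligo(dT) selection. The authors aligned the reads with BWA to RN4 and deposited raw counts, whole reads per transcript without normalization. The methods name an Ensembl annotation, while the rows carry RefSeq identifiers. The use of strand and the treatment of reads shared by several rows were not given in the sources used here. Symbols and promoter windows came from RefSeq tables of GRCr8. Unaligned reads, which had a row of their own, were not used for testing.

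Rows with a total below the 30th percentile of all totals (46 counts) were left out. Stimulated and sham rats were compared in edgeR 4.0.16 (R 4.3.3, limma 3.58.1), by the quasi-likelihood test with TMM factors, without covariates and with Benjamini-Hochberg adjustment across the 22447 rows kept, after the code was tested on simulated data. Log2 CPM used a prior count of 2. The 2 ratios within rats were tested by exact permutation over all assignments of 5 rats to each group. DESeq2 1.42.0, other edgeR tests, limma-voom, other scalings and filters, summed rows and the omission of each rat were tried as alternatives, and the counts of the other target genes under them were added after the data were seen. The study's methods count 4 stimulated animals for this assay and the labels 5, so all were used and each omitted in turn. Each sample was a separate rat. The members and gene lists were chosen with earlier results of these data known. From each list the text names at most 6 genes by smallest unadjusted p-value under 0.05, or the smallest where none was under it. Likeness to a member was Pearson's r over log2 CPM among rows of at least 10 CPM. Python 3.11.15 with numpy 2.4.6, pandas 2.3.3, scipy 1.17.1 and matplotlib 3.10.9 was used.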

Additional observations from a re-analysis of the deposited data

Results flagged for a closer look

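Among 24 groups of 5 values, those of each gene of the set and of both ratios in each group of rats, 0 held a rat whose gap to the others passed Dixon's critical value of 0.71, where 1.2 are expected by chance.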

How the results depend on the processing

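In all 22 alternatives tried, 0 of the 10 genes passed the adjusted threshold, and Fkbp5 kept an unadjusted p-value under 0.05. The number of genes with an unadjusted p-value under 0.05 was 2 or 3 under other tests, scalings and filters, with Tsc22d3 not among them under library size alone and Klf9 not among them under limma-voom and upper quartile factors, and it ranged from 1 to 3 with 1 rat left out. Without sham rat 1, 2, 4 or 5 or stimulated rat 7 or 10 it was Fkbp5 alone. The log2 fold change of Nr3c1 changed sign under upper quartile factors, to -0.0080, and ranged from -0.044 to 0.075 with 1 rat left out. Over those omissions Nr3c2 ranged from -0.071 to 0.019, Hsd11b1 from -0.025 to 0.25, the log2 ratio difference of Nr3c2 to Nr3c1 from -0.12 to 0.021 and that of Fkbp5 to Fkbp4 from 0.34 to 0.59 (exact permutation test, p from 0.0159 to 0.0873). The other 7 genes kept their direction throughout. The 10 higher genes among other targets numbered 6 under limma-voom, and 6 to 13 with 1 rat left out. Such counts, for the set and for each list, moved beside the whole table. With 1 rat left out, 1657 (without rat 7) to 3145 (without rat 6) of all rows had an unadjusted p-value under 0.05 in edgeR. The main fit had 2214. The causes were not tested. No paired analysis was possible because rat numbers are not shared between the groups. With 27 to 80 counts per rat, counting error limits Crhr1 most.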

Other observations

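Close relatives of the set were described as well. Of 14 listed, 12 were tested and 0 passed the adjusted threshold, with 2 higher (6.7% of all rows were) and 2 lower (3.16% of all rows) at an unadjusted p-value under 0.05. With 1 rat left out the list had 1 to 3 higher and 1 to 2 lower genes: 1 higher without sham rat 1, 2, 3 or 4 or stimulated rat 7 or 10 and under limma-voom, and 1 lower without sham rat 4 or 5 or stimulated rat 9 and with library size alone. Klf10, a transcription factor of the Klf9 family that answers to growth factor signals, was at 18.3, 28.1, 21.9, 24.97 and 19.9 CPM in sham rats 1 to 5 and 27.7, 95.2, 21.8, 211 and 58.0 CPM in stimulated rats 6 to 10, and rats 7, 9 and 10 were above the sham range, as they were for Klf9. Its log2 fold change was 1.87 (SE 0.487) in edgeR (adjusted p = 0.376). Sgk2, a kinase of the Sgk1 family, was at 1.45, 2.52, 1.80, 1.24 and 1.63 CPM in sham rats 1 to 5 and 0.950, 0.743, 0.447, 1.43 and 0.671 CPM in stimulated rats 6 to 10, with 4 of the 5 stimulated rats below the sham range and a log2 fold change of -0.997 (SE 0.326) at a low level of counts, opposite in sign to that of Sgk1. Among immunophilins of the secretory pathway, Fkbp10 had a log2 fold change of 0.45 (SE 0.188) and Fkbp2 of -0.28 (SE 0.115).

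Among daily rhythm genes, Nfil3, which represses the genes Dbp activates, was higher in each of the 5 stimulated rats than in any sham rat, with means of 8.42 ± 1.28 CPM for sham and 25.1 ± 14.0 CPM for stimulated animals and a log2 fold change of 1.58 (SE 0.328) (edgeR, adjusted p = 0.376). Nr1d2, a repressor of the clock, was lower in each of them, with a log2 fold change of -0.59 (SE 0.149) (edgeR, adjusted p = 0.376). The log2 fold change was 0.40 (SE 0.141) for Bmal1 and -0.76 (SE 0.220) for Ciart.

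The genes whose levels were most like those of a member over the 10 rats were sought among 7854 rows of other genes, as a description. The points share 10 libraries and their scaling, and no p-value is given. Pearson's r is given with Spearman's rho and with r after leaving out the 2 rats farthest from the median of the member. For Fkbp5 they were Pfkfb3 (0.976, rho 0.855, 0.558 without them), Eaf1 (0.975, rho 0.794, 0.693 without them) and Hs2st1 (0.974, rho 0.879, 0.773 without them). The rats left out for Fkbp5 were 7 and 9. For Nr3c1 they were Pafah1b1 (0.913, rho 0.770, 0.820 without them), Ncor1 (0.905, rho 0.903, 0.734 without them) and Pum2 (0.897, rho 0.842, 0.819 without them). For Nr3c2 they were Atg3 (0.908, rho 0.733, 0.746 without them), Tbrg1 (0.889, rho 0.855, 0.773 without them) and Rnf216 (0.883, rho 0.745, 0.496 without them), and for Sgk1 Acd (0.879, rho 0.855, 0.823 without them), Cadm2 (0.862, rho 0.879, 0.814 without them) and Asah1 (0.845, rho 0.915, 0.692 without them).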
